A study of Mus musculus with 12 samples.

Results

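The genes described here make up fatty acid oxidation in mitochondria and peroxisomes: 39 genes of the 47729 in the count tables, taken by symbol from a fixed list. They comprise 7 genes of the carnitine shuttle and its control, 20 of mitochondrial beta-oxidation, 8 of peroxisomal oxidation and 4 acyl-CoA thioesterases, and each symbol matched 1 gene identifier. The classes are assignments by list and not measured locations. Crot, in the shuttle class, is itself an enzyme of peroxisomes. They were followed in 12 RNA-seq libraries of fat from wild type male C57BL/6J mice aged 6 to 10 weeks. Per the labels, the mice ate a low-fat rodent diet and every tissue had been denervated by surgery. The groups were interscapular brown adipose tissue (BAT) and 3 white depots, epididymal (EWAT), inguinal (IWAT) and retroperitoneal (RWAT), with 3 libraries each, named below by depot and replicate number. All 4 groups shared the denervation, and innervated fat was not analysed here, so the comparisons are between depots only. The labels do not say whether the replicates are separate mice, so a p-value here reflects only how far the libraries of a depot lie apart, and that spread may be technical.

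Long-chain fatty acids enter mitochondria as carnitine esters. Carnitine palmitoyltransferase 1 on the outer membrane forms the ester, a translocase carries it across the inner membrane, and carnitine palmitoyltransferase 2 turns it back into acyl-CoA, which is then shortened in repeated rounds of dehydrogenation, hydration, dehydrogenation and thiolysis. Malonyl-CoA, an intermediate of fatty acid synthesis, inhibits the first step. Peroxisomes shorten very long-chain and branched fatty acids with their own set of enzymes, and thioesterases release free fatty acids from acyl-CoA. Brown adipocytes burn fatty acids by this route to feed heat production through uncoupling protein 1, whereas white adipocytes mainly store them.

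Many genes of the pathway are known targets of the nuclear receptors PPAR and ERR, so the sequences before their starts were read from RefSeq's promoter windows of build GRCm38.p6, which span 250 bases before to 50 after a start. An entry existed for 30 of the 39 members. Cpt1b, Crat, Acad9, Acaa2, Acat1, Decr1, Abcd2, Hsd17b4 and Acot13 had none. The PPAR and RXR element, a pair of AGGTCA half-sites with 1 base of any kind between them, searched on both strands with up to 2 mismatches, was found in 3 of the 30 members (10.0%), namely Slc25a20, Echs1 and Etfa, and in 3.86% of 32851 promoters. With up to 1 mismatch it was in 0 of the 30 and in 0.554% of all promoters. The extended half-site TCAAGGTCA of the ERR receptors was in 0 members and 0.423% of promoters, the NRF1 palindrome (GCGCA followed directly by TGCGC) in 2 members (Acad10 and Etfdh, 6.67%) and 0.971% of promoters, and the ETS core CCGGAAG in 4 members (Cpt2, Slc25a20, Crot and Mlycd, 13.3%) and 8.86% of promoters. The 3 stretches below show such matches where no annotated exon overlaps. They lie at chr9:55512244-55512393 for Etfa, chr7:140116477-140116571 for Echs1 and chr4:107923611-107923739 for Cpt2. All are on the minus strand and are written 5′ to 3′ in the gene's direction. Capitals mark the PPAR and RXR match at bases -77 to -65 of Etfa (on the opposite strand of the gene) and -83 to -71 of Echs1, and the ETS core at -113 to -107 of Cpt2 (on the opposite strand), where -1 is the base just before the start.
Etfa: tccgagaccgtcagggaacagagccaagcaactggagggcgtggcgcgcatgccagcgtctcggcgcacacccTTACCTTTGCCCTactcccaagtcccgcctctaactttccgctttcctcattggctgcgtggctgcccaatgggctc
Echs1: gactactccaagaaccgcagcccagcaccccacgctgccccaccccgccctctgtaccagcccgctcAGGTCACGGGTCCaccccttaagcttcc
Cpt2: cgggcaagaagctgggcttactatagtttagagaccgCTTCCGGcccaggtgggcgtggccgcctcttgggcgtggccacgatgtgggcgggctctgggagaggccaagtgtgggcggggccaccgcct
These matches describe the letters in the windows, and binding was not measured. Of the 3 genes shown, Etfa encodes a subunit of the flavoprotein that takes electrons from the acyl-CoA dehydrogenases, Echs1 the short-chain enoyl-CoA hydratase, and Cpt2 the inner-membrane carnitine palmitoyltransferase.

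The libraries held 15699912 to 25633413 estimated counts, so a limit of 3 counts corresponded to 0.117 to 0.191 CPM (counts scaled to a common library total), a limit that covers counting error only. All 39 members passed the filter on low counts, which left 19154 genes. CPM values below are also scaled by TMM (a factor that aligns libraries with different composition). The TMM factors were 0.615 to 0.971 in BAT and 1.15 to 1.23 in EWAT, and a low factor raises CPM. TPM, given where named, is a unit per transcript length, which allows levels of different genes to be compared. Orders and overlaps of libraries below were read in TMM-scaled CPM unless TPM is named, and some differ in TPM. The depot labels were checked against brown adipocyte markers. The uncoupling protein gene Ucp1 was at 2962 CPM in BAT replicate 1, 32.2 in BAT replicate 2 and 702 in BAT replicate 3, against 47.6, 129.8 and 21.5 in IWAT and 0 to 12.4 in EWAT and RWAT, so BAT replicate 2 was below 2 IWAT libraries. In TPM, Ucp1 in BAT replicate 2 (21.7) was below every IWAT library (27.2, 93.6 and 22.95). The mean log2 CPM of 10 brown adipocyte markers was 6.62, 3.50 and 5.39 in BAT and 3.14, 3.72 and 1.88 in IWAT. Skeletal muscle markers also differed: the summed TPM of 18 such genes was 7523, 8721 and 1889 in BAT and 11885 in RWAT replicate 3, and 16.7 to 99.2 in the other 8 libraries.

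BAT was first set against the mean of the 3 white depots. With edgeR's quasi-likelihood test and a Benjamini-Hochberg adjustment over all 19154 genes, 0 of the 39 members were called at an adjusted p under 0.05, where 0.0992% of all genes tested were called. The lowest adjusted p of a member was 0.0857, for Acot11. At an unadjusted p under 0.05 the count was 32 of 39, all higher in BAT, against 12% of all genes. DESeq2 called 18 members, all higher in BAT, against 4.32% of the genes it gave an adjusted p, and limma-voom called 0. For 0 members were all BAT libraries above all white libraries, against 0.475% of genes. The fitted log2 fold change was above 0 for 38 members (with library sizes alone, Crot, Acad9, Acox3 and Acot1 also lay below 0), and its median was 1.54, beside -0.0662 over all genes tested. In bulk tissue such as this, fewer cells of a type and less RNA per cell cannot be told apart. Every BAT library was also high in skeletal muscle markers. The part of muscle in the members' median was not tested beyond the fits in the closing section. By class the median was 1.52 for the carnitine shuttle, 1.69 for the mitochondrial genes, 0.91 for the peroxisomal genes and 1.32 for the thioesterases. In TMM-scaled CPM, BAT replicate 1 was the highest of the BAT libraries for 36 of the 39 members. In TPM further members were highest in another BAT library, such as Acadsb (157, 212 and 133) and Acaa1a (84.4, 88.5 and 72.1). Without BAT replicate 1 the members' median log2 fold change was 0.87, whereas without BAT replicate 2, the library low in Ucp1, it was 1.67.

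**Figure D1:**
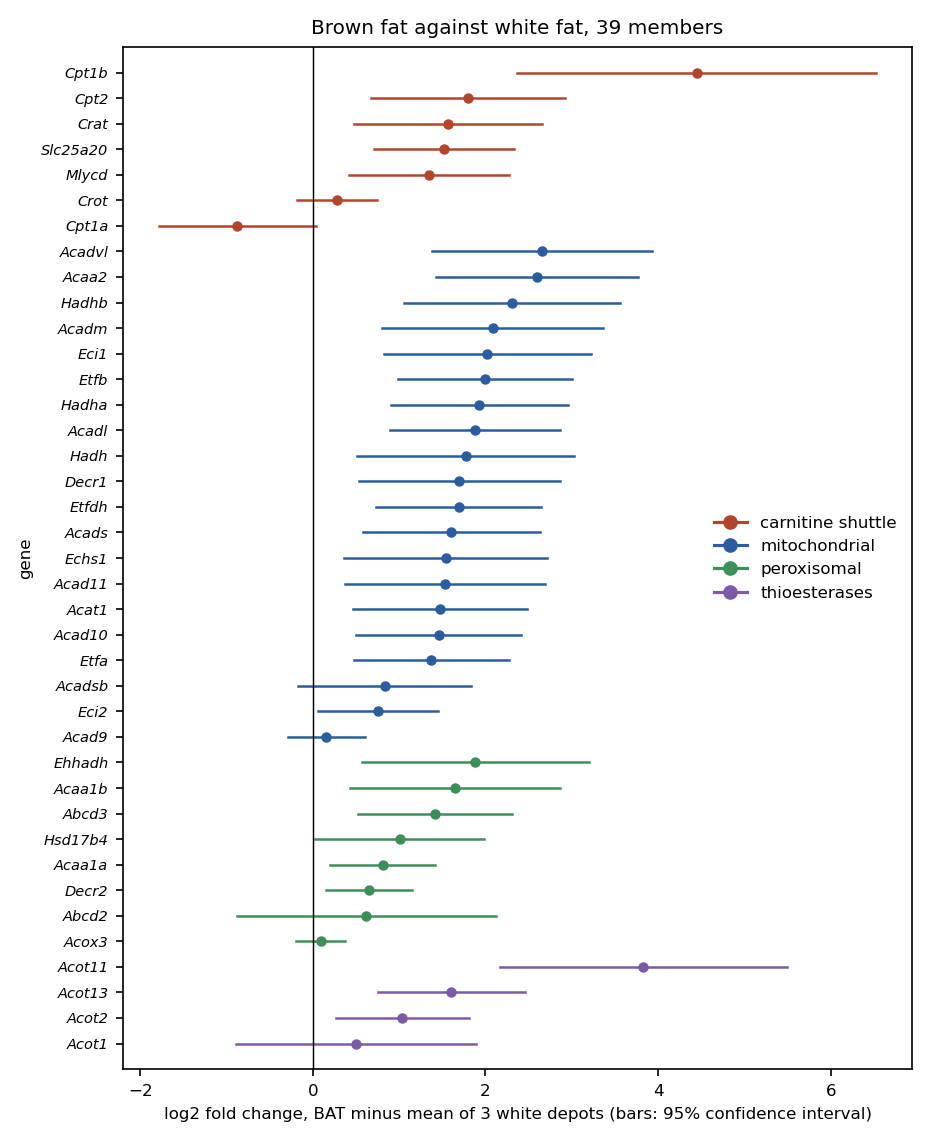
Fitted log2 fold change of each of the 39 members in BAT against the mean of EWAT, IWAT and RWAT (points) with its 95% confidence interval (bars), by class. Cpt1b (4.45) and Acot11 (3.83) lie farthest to the right and Cpt1a (-0.87) is the only point below 0 at this scaling; with library sizes alone Crot, Acad9, Acox3 and Acot1 were below 0 as well.

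Against single depots the separation of libraries, read in TMM-scaled CPM, differed. In BAT against EWAT, every BAT library was above every EWAT library for 34 members, a pattern held by 19.1% of all genes tested. Every BAT library was below for 1, Cpt1a, a pattern held by 17.8%. In TPM, Crot, Eci2, Acaa1a, Decr2 and Acot11 overlapped EWAT, and Acox3 was below EWAT in every BAT library. The members' median log2 fold change against EWAT was 2.16. For BAT against RWAT, 18 members were separated upward, against 7.42% of all genes, with a median of 1.78. For BAT against IWAT, 0 members were separated, against 3.61% of genes upward and 3.22% downward, and the median was 0.69. The 3 comparisons share their BAT libraries. edgeR called 0 members in each, where 0.783%, 0.0574% and 0.0104% of genes were called against EWAT, RWAT and IWAT. At an unadjusted p under 0.05, 33, 32 and 3 members were higher in BAT than in EWAT, RWAT and IWAT, against 15.1%, 8.31% and 2.52% of genes. DESeq2 called 29 members against EWAT (28 higher in BAT and Cpt1a lower; 16% of genes), 8 against RWAT (1.46%) and 0 against IWAT (0.675%), and limma-voom called 0 in all 3. A test for any difference among the 4 depots called 0 members with edgeR (0.512% of genes; 29 members and 17.1% of genes at an unadjusted p under 0.05), 27 with DESeq2 (11.3%) and 0 with limma-voom.

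**Figure D2:**
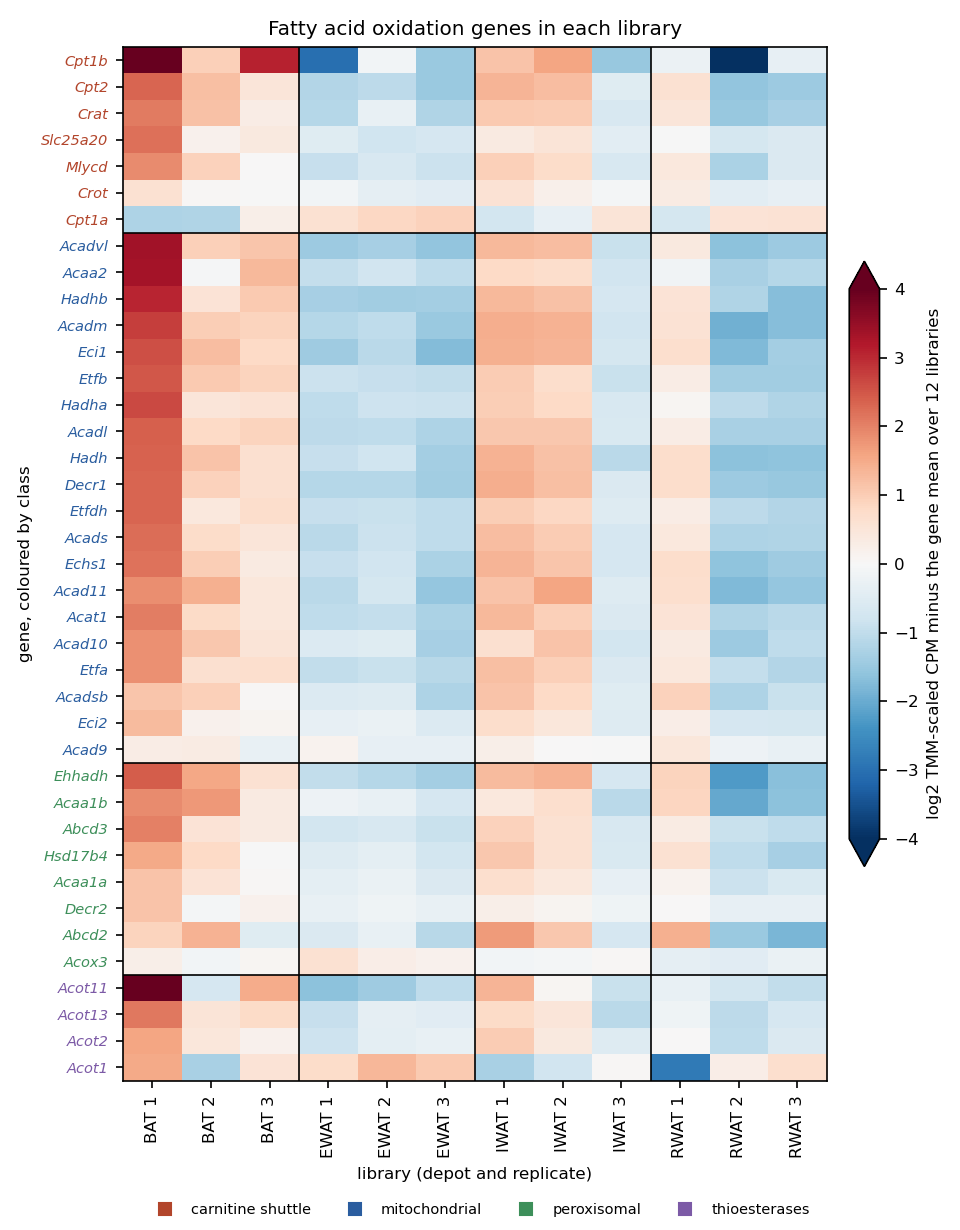
Level of each member in each library as log2 TMM-scaled CPM minus the gene's mean over the 12 libraries (colour, which saturates at -4 and 4), with genes in rows by class and libraries in columns. In this unit, BAT replicate 1 is the highest BAT library for 36 of 39 members and IWAT replicate 3 the lowest IWAT library for 36. RWAT replicate 1 is above RWAT replicates 2 and 3 for 36 of 39 members. In TPM the order of libraries differs for some members.

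The first step of the carnitine shuttle is encoded by Cpt1a, the isoform typical of liver, and Cpt1b, the isoform typical of muscle and brown fat. Cpt1a (chr19:3322334-3385733 on the plus strand of GRCm38.p6) was at 50.7, 52.5 and 142 CPM in BAT, 184, 212 and 228 in EWAT, 72.0, 96.1 and 171 in IWAT and 74.0, 174 and 179 in RWAT. The EWAT libraries were above all 3 BAT libraries, IWAT and RWAT overlapped BAT, and the lowest libraries were BAT replicates 1 and 2. Its log2 fold change was -0.87 (SE 0.41, 95% confidence interval -1.78 to 0.0326, edgeR adjusted p = 0.288) in BAT against white and -1.35 (SE 0.48, edgeR adjusted p = 0.115) against EWAT. Neither passed the test. With TMM scaling Cpt1a was the sole member of the 39 with a fold change below 0 against the white depots, and with library sizes alone Crot, Acad9, Acox3 and Acot1 joined it.

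Cpt1b (chr15:89416405-89425863 on the minus strand of GRCm38.p6) ran the other way. It was at 548, 25.7 and 112 CPM in BAT, 1.64, 12.2 and 4.80 in EWAT, 29.3, 39.9 and 4.70 in IWAT and 11.3, 0.315 and 10.7 in RWAT. BAT replicates 1 and 3 were above all white libraries, while BAT replicate 2 lay below both IWAT replicates 1 and 2. The log2 fold change in BAT against white was 4.45 (SE 0.94, 95% confidence interval 2.37 to 6.53, edgeR adjusted p = 0.0963), which was the largest of the 39 members and did not pass the test. It was 5.19 against EWAT, 4.94 against RWAT and 3.21 against IWAT (edgeR adjusted p = 0.0782, 0.319 and 0.998). Without BAT replicate 1 the fold change against white was 2.72. Skeletal muscle also uses Cpt1b, and the muscle markers moved with the BAT label. With the muscle marker mean as a covariate the log2 fold change was 2.96 (edgeR adjusted p = 0.912). The part of muscle in the Cpt1b values was not tested beyond this fit. Cpt1b is also uncertain as a count: its deposited posterior SD was on average 15.2% of the Cpt1b count and at most 85.9%. The neighbouring choline kinase gene Chkb may share reads with Cpt1b, which was not tested. With the counts of both genes summed, the log2 fold change was 3.01 (edgeR adjusted p = 0.0814).

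The balance of the 2 isoforms was compared as the log2 ratio of their TPM, with 0.1 TPM added to each. Cpt1a was at 7.57, 13.1 and 42.1 TPM in BAT, 57.9, 72.5 and 93.5 in EWAT, 15.3, 25.8 and 68.0 in IWAT and 22.8, 67.2 and 64.9 in RWAT. Cpt1b was at 314, 25.8 and 121 TPM in BAT, 1.46, 16.5 and 6.24 in EWAT, 21.4, 40.0 and 6.77 in IWAT and 11.2, 0.880 and 15.9 in RWAT. In all 3 BAT libraries and in IWAT replicates 1 and 2, Cpt1b exceeded Cpt1a, and in the other 7 white libraries Cpt1a exceeded Cpt1b. The log2 ratio of Cpt1b to Cpt1a was 5.36, 0.97 and 1.52 in BAT, -5.22, -2.13 and -3.88 in EWAT, 0.48, 0.63 and -3.31 in IWAT and -1.01, -6.10 and -2.02 in RWAT. Every BAT library was above every white library. The means were 2.62 ± 2.39 (SD, n = 3) in BAT and -2.51 ± 2.35 (SD, n = 9) in white fat, a difference of 5.12 (two-sided exact permutation test over 220 arrangements, p = 0.00455, the smallest this design allows; 0.0227 after adjustment over 5 ratios). The white libraries come from 3 depots, whose means were -3.74, -0.73 and -3.04 in EWAT, IWAT and RWAT. The adjusted permutation p was above 0.05 when any of BAT replicates 1 and 3, EWAT replicates 1, 2 and 3, IWAT replicate 3 and RWAT replicate 3 was left out, with the difference then between 3.75 and 5.67. Without BAT replicate 3 the adjusted permutation p was 0.0909, and the p before adjustment was the smallest that number of libraries allows. With the CPM of Cpt1b and Chkb summed in place of Cpt1b, the difference was 3.36 (exact permutation test, adjusted p = 0.0227).

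**Figure D3:**
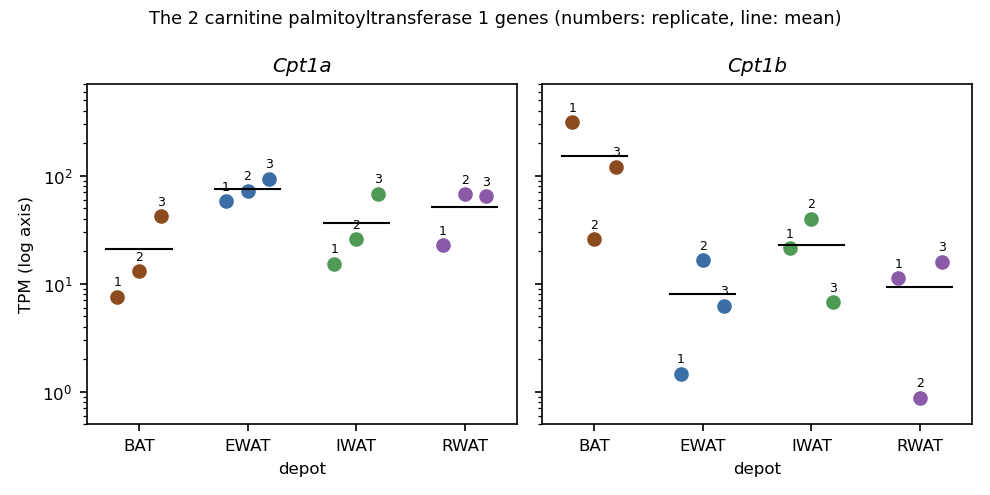
TPM (log axis) of Cpt1a and Cpt1b in each library by depot. Numbers are replicates and lines are arithmetic means; BAT replicate 1 has the lowest Cpt1a (7.57 TPM) and the highest Cpt1b (314 TPM).

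In TMM-scaled CPM, all 5 remaining shuttle genes were higher in every BAT library than in every EWAT library, as were 19.1% of all genes tested. In TPM this held for all of them but Crot, at 23.9, 26.1 and 28.7 in BAT and 30.1, 28.2 and 30.3 in EWAT. Cpt2 was at 452, 208 and 125 CPM in BAT, 39.7, 43.3 and 31.9 in EWAT, 229.5, 212 and 63.8 in IWAT and 136, 30.0 and 32.4 in RWAT. Slc25a20, the carnitine-acylcarnitine translocase of the inner membrane, was at 445, 108 and 127 CPM in BAT, 68.8, 54.9 and 60.1 in EWAT, 124, 136 and 72.4 in IWAT and 94.6, 59.6 and 64.7 in RWAT. For both genes BAT replicate 1 was highest, the other BAT libraries overlapped IWAT, and the EWAT libraries were low. The log2 fold changes in BAT against white were 1.80 (SE 0.51) for Cpt2 and 1.52 (SE 0.37) for Slc25a20, with edgeR adjusted p of 0.141 and 0.119. Crat, which moves acetyl groups between CoA and carnitine, was at 778, 415 and 227 CPM in BAT, 84.4, 152 and 81.0 in EWAT, 385, 370.5 and 119 in IWAT and 258, 64.1 and 74.3 in RWAT. Mlycd, which breaks down malonyl-CoA and so lifts the block on carnitine palmitoyltransferase 1, was at 97.7, 50.05 and 26.4 CPM in BAT, 13.8, 16.9 and 14.4 in EWAT, 50.5, 43.7 and 16.8 in IWAT and 35.0, 10.99 and 17.7 in RWAT. BAT replicate 1 was the highest of all 12 libraries for both, and BAT replicate 3 lay below IWAT replicates 1 and 2. Their log2 fold changes were 1.57 (SE 0.49) and 1.35 (SE 0.42), with edgeR adjusted p of 0.167 and 0.164. Crot, the carnitine octanoyltransferase of peroxisomes, varied least of the shuttle genes, at 90.6, 61.7 and 59.2 CPM in BAT, 55.7, 47.0 and 44.2 in EWAT, 90.5, 68.7 and 57.1 in IWAT and 75.4, 44.3 and 48.1 in RWAT. Its log2 fold change of 0.28 had a 95% confidence interval of -0.19 to 0.74, and it was -0.15 when scaled by library sizes alone. The Crat gene overlaps Dolpp1 on the other strand, and no source used here says whether reads were counted by strand.

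The acyl-CoA dehydrogenases open each round of mitochondrial oxidation. Acadvl, for very long chains, was at 1848, 349 and 392 CPM in BAT, 65.8, 71.1 and 59.9 in EWAT, 446, 427 and 98.3 in IWAT and 239, 57.3 and 65.3 in RWAT. Acadm, for medium chains, was at 1363, 397 and 376 CPM in BAT, 90.5, 99.5 and 71.3 in EWAT, 546, 523 and 119 in IWAT and 298, 53.1 and 61.6 in RWAT. Acadl, for long chains, was at 988, 328 and 352 CPM in BAT, 90.6, 92.5 and 79.9 in EWAT, 393, 396 and 123 in IWAT and 233, 76.0 and 76.6 in RWAT. In all 3 genes BAT replicate 1 was highest, IWAT replicates 1 and 2 were above BAT replicates 2 and 3, and EWAT, RWAT replicates 2 and 3 and IWAT replicate 3 were low. The log2 fold change in BAT against white was 2.66 (SE 0.58, 95% confidence interval 1.38 to 3.94, edgeR adjusted p = 0.0992) for Acadvl. It was 2.08 (SE 0.58) for Acadm and 1.88 (SE 0.45) for Acadl, with edgeR adjusted p of 0.140 and 0.115. Without BAT replicate 1 the value for Acadvl was 1.44. Against EWAT alone the Acadvl log2 fold change was 3.72 (edgeR adjusted p = 0.0638), which it shared with Acadl as the lowest adjusted p of the members in that comparison. Acadvl overlaps Dvl2 on the other strand. Acads, for short chains, had a log2 fold change of 1.61. Acad9, which is best known as an assembly factor of respiratory complex I, showed little difference: it was at 133, 133 and 88.2 CPM in BAT, 118, 84.8 and 84.7 in EWAT, 126, 109 and 106 in IWAT and 146, 92.5 and 87.4 in RWAT, its log2 fold change was 0.16 with a 95% confidence interval of -0.29 to 0.61, and -0.26 with library sizes alone.

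The mitochondrial trifunctional protein carries out the next 3 reactions on long chains and is built from the products of Hadha and Hadhb, which lie head to head on chromosome 5 with 85 bases between their annotated ends in GRCm38.p6. Hadha was at 1775, 402 and 430.0 CPM in BAT, 142, 162 and 158 in EWAT, 562, 497 and 183 in IWAT and 300.1, 137 and 124 in RWAT. Hadhb was at 1965, 346 and 484 CPM in BAT, 93.4, 90.7 and 91.1 in EWAT, 584, 525 and 148 in IWAT and 343, 101 and 72.2 in RWAT. The libraries fell in nearly the same order for the pair, with BAT replicate 1 far above the rest and IWAT replicates 1 and 2 next. The log2 fold changes in BAT against white were 1.93 (SE 0.46) for Hadha and 2.31 (SE 0.57) for Hadhb, with edgeR adjusted p of 0.117 and 0.120. Hadha overlaps Garem2 on the other strand. Against EWAT, where each BAT library was above each EWAT library for both genes, the value for Hadhb was 3.34 (edgeR adjusted p = 0.0667).

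Acaa2, a thiolase of mitochondrial beta-oxidation, was at 1476, 142 and 361 CPM in BAT, 74.8, 85.4 and 73.0 in EWAT, 256, 240.4 and 85.9 in IWAT and 131, 59.5 and 66.1 in RWAT. BAT replicate 1 was far above every other library, and BAT replicate 2 lay below IWAT replicates 1 and 2. The log2 fold change was 2.60 (SE 0.53, edgeR adjusted p = 0.0920) in BAT against white and 1.21 without BAT replicate 1. Etfdh, which passes the electrons of the dehydrogenases on to ubiquinone, was at 531, 142 and 174 CPM in BAT, 56.1, 57.8 and 53.1 in EWAT, 212, 189 and 75.3 in IWAT and 129.9, 51.2 and 47.3 in RWAT. BAT replicates 2 and 3 lay below IWAT replicates 1 and 2 for Etfdh. The Etfdh log2 fold change was 1.69 (SE 0.43, edgeR adjusted p = 0.127). Eci1, an isomerase needed for unsaturated fatty acids, was at 343, 133 and 97.9 CPM in BAT, 21.4, 26.8 and 17.2 in EWAT, 153, 146 and 34.7 in IWAT and 90.4, 16.9 and 22.02 in RWAT and had a log2 fold change of 2.02. Etfb, the partner subunit of Etfa, had one of 2.00. The log2 fold changes of the 20 mitochondrial members spanned 0.16 (Acad9) to 2.66 (Acadvl). Per length, Etfb was the most abundant member in BAT at 664 ± 196 TPM (SD, n = 3), followed by Acadm at 576 ± 245 TPM. Etfb also led in EWAT at 193 ± 18.3 TPM and in RWAT at 224 ± 126 TPM. In IWAT, Acadm at 408 ± 201 TPM and Etfb at 383 ± 151 TPM were within their spread of each other, as were the leading pair in BAT.

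The peroxisomal genes had the lowest median of the 4 classes in BAT against white. Abcd3, a transporter of fatty acids into peroxisomes, was at 436, 159 and 139 CPM in BAT, 65.2, 68.3 and 58.6 in EWAT, 204, 163 and 69.4 in IWAT and 135, 57.5 and 53.4 in RWAT. Its log2 fold change in BAT against white was 1.42 (SE 0.40, edgeR adjusted p = 0.142), and in CPM the BAT libraries were above all EWAT and RWAT libraries. In TPM, BAT replicate 2 (60.4) lay below RWAT replicate 1 (61.5). Abcd2, a related transporter, was at 524, 740.3 and 201 CPM in BAT, 188, 231 and 130.3 in EWAT, 929.6, 592 and 177 in IWAT and 752, 102 and 78.8 in RWAT. Its highest library was IWAT replicate 1, and RWAT replicate 1 was above all BAT libraries. The log2 fold change was 0.62 with a 95% confidence interval of -0.88 to 2.12. Acox3, the oxidase that starts the breakdown of branched acyl-CoA in peroxisomes, was at 67.1, 52.6 and 60.5 CPM in BAT, 86.6, 68.3 and 63.9 in EWAT, 52.9, 53.5 and 58.9 in IWAT and 44.2, 41.6 and 47.4 in RWAT. In these CPM, EWAT replicates 1 and 2 were the highest libraries, BAT overlapped EWAT and IWAT, and all 3 RWAT libraries were lowest. The order was different in TPM. There EWAT (46.6, 41.4 and 45.6) was above every BAT library (18.3, 26.4 and 29.7), RWAT (20.3, 26.7 and 29.85) overlapped BAT, and BAT replicate 1 was lowest. Its log2 fold change was 0.0936 (95% confidence interval -0.19 to 0.38, and -0.33 with library sizes alone) in BAT against white, -0.28 against EWAT and 0.44 against RWAT, with edgeR adjusted p of 0.660, 0.263 and 0.319.

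The next enzymes of the peroxisome were Ehhadh and Hsd17b4, a pair of bifunctional proteins, and the thiolases Acaa1a and Acaa1b. Ehhadh was at 159, 86.6 and 45.7 CPM in BAT, 15.1, 13.6 and 11.7 in EWAT, 72.4, 78.3 and 18.6 in IWAT and 56.0, 6.22 and 9.41 in RWAT. Hsd17b4 was at 469, 285 and 164 CPM in BAT, 115, 124 and 98.9 in EWAT, 344, 253 and 107 in IWAT and 253, 80.7 and 66.0 in RWAT. Both were above EWAT in every BAT library and overlapped IWAT and RWAT. Their log2 fold changes in BAT against white were 1.89 (SE 0.60) and 1.01 (SE 0.44), with edgeR adjusted p of 0.169 and 0.267. Per length, Ehhadh was the lower of the pair in every library. The log2 TPM ratio of Ehhadh to Hsd17b4 was -2.31 ± 0.160 (SD, n = 3) in BAT and -3.23 ± 0.548 (SD, n = 9) in white fat, a difference of 0.915 (two-sided exact permutation p = 0.0227, 0.0568 after adjustment over 5 ratios). Acaa1a was at 162, 108 and 76.2 CPM in BAT, 56.0, 61.5 and 49.1 in EWAT, 117, 97.1 and 58.6 in IWAT and 81.2, 40.5 and 47.8 in RWAT. Acaa1b was at 58.9, 52.5 and 20.4 CPM in BAT, 13.9, 13.1 and 9.90 in EWAT, 21.1, 25.2 and 7.57 in IWAT and 28.9, 3.83 and 5.11 in RWAT. In these CPM, BAT replicate 1 was the highest library for both, and RWAT replicates 2 and 3 were low. In TPM the highest library was IWAT replicate 2 for Acaa1a (89.2) and BAT replicate 2 for Acaa1b (36.8). The log2 fold changes were 0.81 (SE 0.27) and 1.64 (SE 0.55), with edgeR adjusted p of 0.186 and 0.185. The log2 TPM ratio of Acaa1b to Acaa1a differed by 0.826 between BAT and white fat (exact permutation p = 0.0591, adjusted 0.0985). These near-identical genes can share reads, and both overlap other genes on the opposite strand.

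The 4 thioesterases spanned log2 fold changes of 0.50 to 3.83 in BAT against white. Acot11, also known as the brown fat-inducible thioesterase, was at 623, 14.5 and 64.6 CPM in BAT, 7.44, 8.65 and 11.6 in EWAT, 59.3, 24.6 and 12.5 in IWAT and 19.1, 14.0 and 11.9 in RWAT. BAT replicate 1 was far above the next library, BAT replicate 3 was above all white libraries, and BAT replicate 2 lay within the white range. The log2 fold change was 3.83 (SE 0.75, 95% confidence interval 2.17 to 5.49, edgeR adjusted p = 0.0857) in BAT against white and 1.27 without BAT replicate 1. Against EWAT, RWAT and IWAT it was 4.67, 3.97 and 2.86 (edgeR adjusted p = 0.0669, 0.319 and 0.998). Acot11 overlaps Fam151a on the other strand. Acot13, a mitochondrial thioesterase, was at 63.4, 21.1 and 24.8 CPM in BAT, 7.76, 11.3 and 10.8 in EWAT, 25.1, 20.5 and 6.998 in IWAT and 13.0, 7.12 and 9.24 in RWAT and had a log2 fold change of 1.60 (SE 0.38, edgeR adjusted p = 0.117). Its BAT libraries were above all EWAT and RWAT libraries. The log2 TPM ratio of Acot11 to Acot13 differed by 1.01 between BAT and white fat (exact permutation p = 0.182, adjusted 0.227), and its values in BAT were 1.09, -3.05 and -0.81.

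Acot2, a mitochondrial thioesterase, was at 48.0, 22.3 and 18.3 CPM in BAT, 9.07, 12.3 and 13.2 in EWAT, 32.7, 21.3 and 11.4 in IWAT and 16.6, 8.06 and 10.9 in RWAT and was higher in each BAT library than in each EWAT and RWAT library. Acot1, its cytosolic neighbour on chromosome 12, was at 7.32, 1.05 and 3.77 CPM in BAT, 4.22, 6.47 and 5.25 in EWAT, 1.05, 1.495 and 2.66 in IWAT and 0.357, 3.06 and 4.08 in RWAT. Per length it was the least abundant member in BAT, IWAT and RWAT, and its CPM was lowest in RWAT replicate 1, IWAT replicate 1 and BAT replicate 2. Their log2 fold changes in BAT against white were 1.04 (SE 0.35, edgeR adjusted p = 0.186) and 0.50 (95% confidence interval -0.89 to 1.89, and -0.0822 with library sizes alone). The log2 TPM ratio of Acot1 to Acot2 was -0.59 ± 0.193 (SD, n = 3) in EWAT, -2.54 ± 1.06 in BAT, -3.02 ± 1.37 in IWAT and -2.12 ± 2.16 in RWAT, and between BAT and all white libraries it did not pass the exact permutation test (p = 0.55, adjusted 0.55). The posterior SD of the Acot1 count was at most 31.9% of the count.

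The make-up of the module was then compared as each class's share of the members' summed TPM. Mitochondrial genes held 80.6, 75.7 and 79.8% in BAT, 71.4, 68.8 and 69.8% in EWAT, 78.5, 79.0 and 73.3% in IWAT and 75.7, 72.0 and 71.0% in RWAT. Every BAT library was above every EWAT library. Peroxisomal genes held 5.33, 10.9 and 7.04% in BAT, 14.3, 14.3 and 13.7% in EWAT, 9.88, 8.70 and 11.8% in IWAT and 12.3, 12.1 and 11.4% in RWAT. The order was reversed here, with all EWAT libraries above all BAT libraries, although the summed peroxisomal TPM itself was higher in BAT (501, 553 and 381) than in EWAT (287, 336 and 307). With 3 libraries a group an exact test cannot reach below 0.1, so these shares are given without one. The carnitine shuttle held 10.3% to 15.4% and the thioesterases 0.934% to 2.24% over the 12 libraries.

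**Figure D4:**
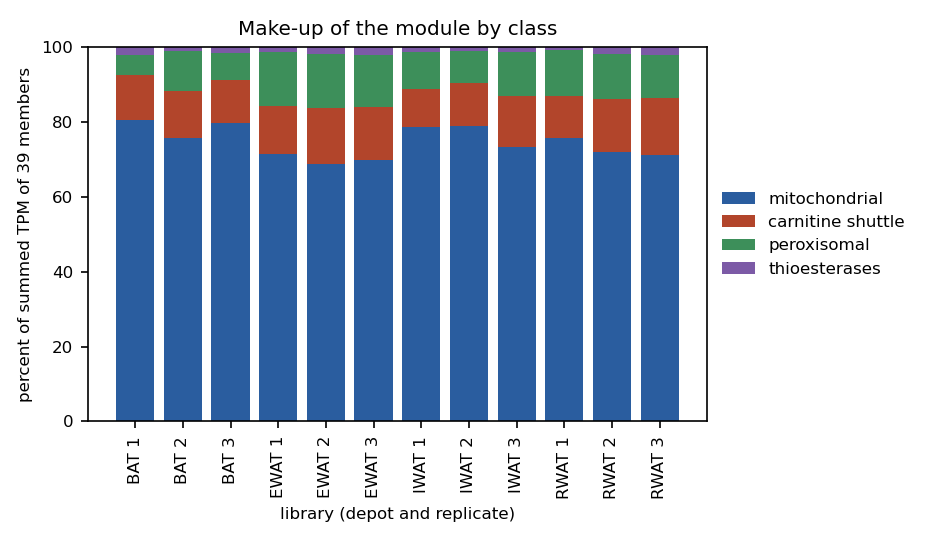
Share of the members' summed TPM held by each class (stacked bars, percent) in each library. The mitochondrial share is 75.7% to 80.6% in BAT and 68.8% to 71.4% in EWAT, and the peroxisomal share is 5.33% to 10.9% in BAT and 13.7% to 14.3% in EWAT.

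Among the white depots the members were higher in IWAT than in the other 2 on average, with a median log2 fold change of 1.25 in IWAT relative to EWAT and RWAT averaged, beside -0.0494 over all genes. edgeR called 0 members (0.141% of genes), and 23 members, all higher in IWAT, had an unadjusted p under 0.05, against 7.19% of genes. DESeq2 (1.57% of genes) and limma-voom also called 0. For 0 members were all IWAT libraries above all EWAT and RWAT libraries, against 0.924% of genes. The values were 1.86 (SE 0.65) for Acadvl and 1.86 (SE 0.60) for Eci1, the largest of the members, and 1.85 (SE 0.64) for Acadm, with edgeR adjusted p of 0.401, 0.390 and 0.401. In EWAT against RWAT the median was -0.35, and it was 0.28 without RWAT replicate 1, so its sign rested on that library. edgeR called 0 members (0.0418% of genes; 1 member, Acox3, was higher in EWAT at an unadjusted p under 0.05, against 4.89% of genes), DESeq2 called 1, Acox3 (3.42% of genes), and limma-voom 0. In TMM-scaled CPM, the EWAT libraries were all above the RWAT libraries for 3 members, Acox3, Cpt1a and Acot1 (8.21% of genes). They were all below for 1, Acot11 (6.66%). Neither count of members exceeded the share over all genes. In TPM, EWAT replicate 1 lay below RWAT replicate 2 for Cpt1a (57.9 and 67.2) and below RWAT replicate 3 for Acot1 (3.79 and 4.23). For Acox3 the log2 fold change was 0.72 (SE 0.16, edgeR adjusted p = 0.163), for Cpt1a 0.55 (SE 0.48) and for Acot1 1.08 (SE 0.79).

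Libraries of 1 depot also differed among themselves, least in EWAT. The median member spanned a log2 range of 1.68 over the 3 BAT libraries, 1.72 in IWAT, 1.70 in RWAT and 0.33 in EWAT. In TMM-scaled CPM, IWAT replicate 3 was the lowest IWAT library for 36 of the 39 members, and RWAT replicate 1 the highest RWAT library for 36. The exceptions in RWAT were 3 members highest in replicate 3. The mean log2 CPM of the 39 members was 8.204, 6.81 and 6.73 in BAT, 5.41, 5.60 and 5.29 in EWAT, 7.09, 6.95 and 5.61 in IWAT and 6.47, 4.96 and 5.19 in RWAT. That of 13 adipocyte markers was 10.94, 10.69 and 9.45 in BAT, 8.55, 8.71 and 7.80 in EWAT, 10.92, 10.53 and 8.72 in IWAT and 10.48, 7.54 and 7.25 in RWAT. The libraries low in the module within IWAT and RWAT were also low in adipocyte markers, and they were high in macrophage markers, whose summed TPM over 11 genes was 949, 2303 and 6791 in IWAT and 1376, 5815 and 4970.4 in RWAT. In BAT that sum was 316, 790.0 and 4856 and in EWAT 5443, 8078 and 10296. With the adipocyte marker mean as a covariate, the members' median log2 fold change was 0.65 in BAT against white, 0.85 against EWAT, 0.62 against RWAT and 0.15 in IWAT against EWAT and RWAT, and edgeR called 0 members in each. Within IWAT and RWAT, Cpt1a and Acot1 were lowest in replicate 1, the library with the highest adipocyte marker mean in each of these depots.

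**Figure D5:**
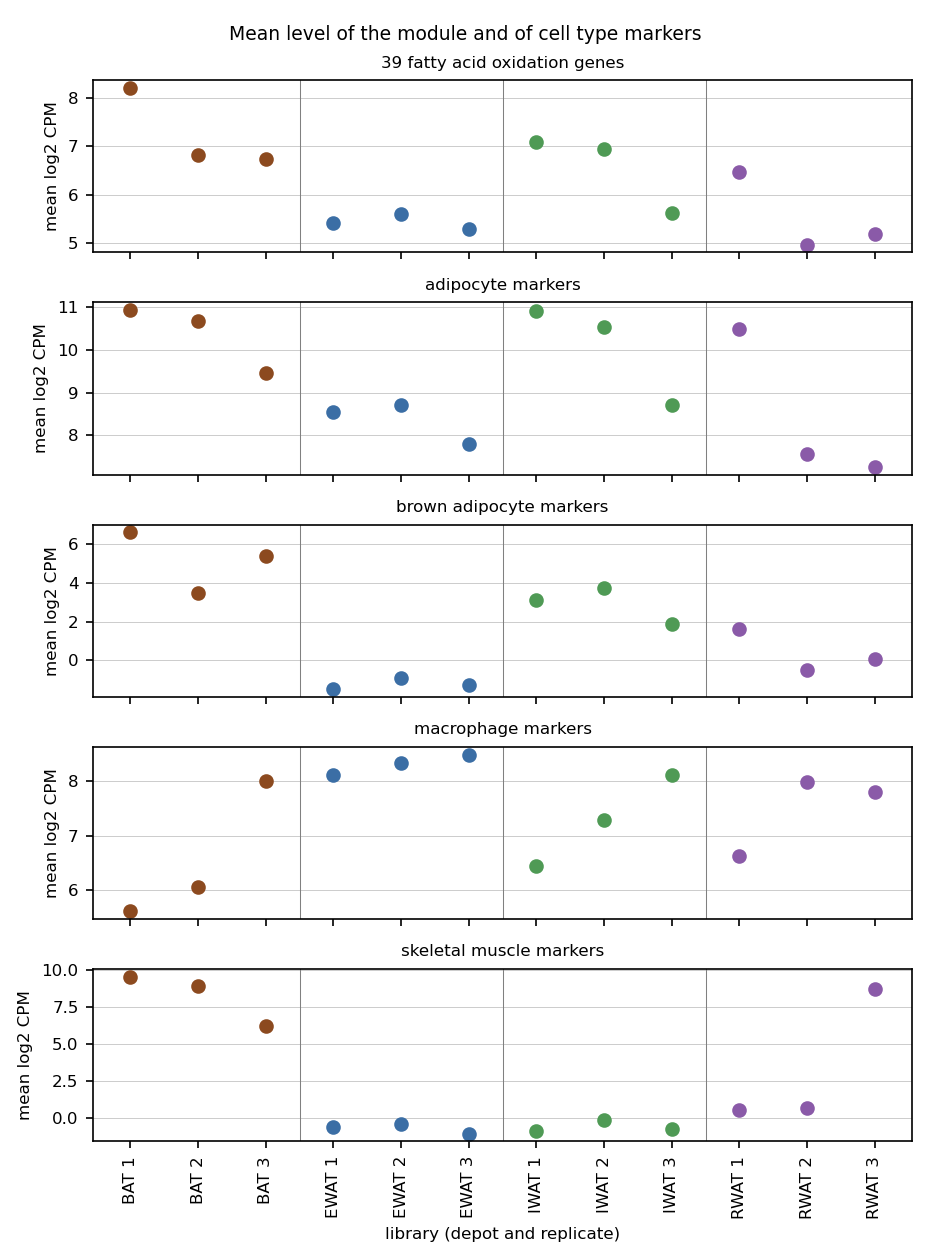
Mean log2 CPM of the 39 members and of 4 cell type marker lists in each library (points, coloured by depot, with a separate axis for each panel). The module and the adipocyte markers are both lowest in RWAT replicates 2 and 3 and EWAT replicate 3, while muscle markers are high in BAT and in RWAT replicate 3.

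Other genes around the pathway were read from 3 further lists. Of 29 tested genes of fatty acid activation, synthesis and other oxidation, edgeR called 1 higher and 0 lower in BAT against white, with a median log2 fold change of 0.97. The called gene was Slc27a2, whose product activates very long-chain fatty acids, at 100.2, 4.12 and 32.2 CPM in BAT, 0.0528, 0.257 and 0.15 in EWAT, 1.74, 8.31 and 0.783 in IWAT and 0.238, 0.0901 and 0.163 in RWAT. The fitted log2 fold change was 6.62 (SE 0.82, edgeR adjusted p = 0.0272), a value that depends on the prior count edgeR adds since some white libraries held only a few counts. BAT replicates 1 and 3 were above all white libraries and BAT replicate 2 was below IWAT replicate 2. The call was lost when any of BAT replicate 1, EWAT replicates 1, 2 and 3, IWAT replicates 1 and 3 and RWAT replicate 2 was left out, and limma-voom did not make it. Without BAT replicate 1 the value was 5.30 (edgeR adjusted p = 0.1501), and over all leave-one-out fits the adjusted p was between 0.00811 and 0.1501. Acaca and Acacb, the acetyl-CoA carboxylases that make malonyl-CoA, did not pass the test. Acaca was at 9933, 6048 and 1664 CPM in BAT, 291, 298 and 143 in EWAT, 7145, 3551 and 477 in IWAT and 4636, 132 and 181 in RWAT, with a log2 fold change of 2.36 (SE 0.96, edgeR adjusted p = 0.244). Acacb, the isoform at the mitochondrial surface, was at 2091, 945 and 409 CPM in BAT, 50.4, 46.6 and 24.4 in EWAT, 760.4, 701 and 119 in IWAT and 589, 20.9 and 55.2 in RWAT, with one of 2.77 (SE 0.81, edgeR adjusted p = 0.146). For both genes the 6 highest libraries were BAT replicates 1, 2 and 3, IWAT replicates 1 and 2 and RWAT replicate 1, which are also the 6 with the highest adipocyte marker means. With the adipocyte marker mean as a covariate, the log2 fold change was 0.60 for Acaca and 1.28 for Acacb (edgeR adjusted p = 0.505 and 0.342).

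Of 23 tested regulators and their targets, edgeR called 1 higher and 0 lower in BAT against white, and the median log2 fold change was 1.44. The called gene was Perm1, a muscle regulator that acts with PGC-1 and ERR, at 46.1, 11.1 and 9.54 CPM in BAT, 1.69, 1.76 and 3.05 in EWAT, 0.648, 1.22 and 1.93 in IWAT and 0.715, 1.85 and 4.46 in RWAT. Its log2 fold change was 3.58 (SE 0.54, edgeR adjusted p = 0.0482), and with the skeletal muscle marker mean as a covariate it was 1.53 (edgeR adjusted p = 0.912). All BAT libraries were above all white libraries, of which RWAT replicate 3, rich in muscle markers, was the highest. The call held when BAT replicate 2, RWAT replicate 1 or RWAT replicate 3 was left out and was lost for each of the other 9 libraries, with an adjusted p of 0.00594 to 0.404 and a log2 fold change of 2.47 without BAT replicate 1. The nuclear receptor gene Ppara was at 80.8, 19.5 and 30.2 CPM in BAT, 1.79, 1.97 and 0.850 in EWAT, 20.1, 27.1 and 3.13 in IWAT and 10.96, 0.901 and 1.305 in RWAT, and its fitted log2 fold change was 3.17 (SE 0.72, edgeR adjusted p = 0.101). Ppargc1a, which encodes the coactivator PGC-1alpha, was at 30.7, 14.9 and 15.0 CPM in BAT, 1.06, 1.71 and 0.750 in EWAT, 15.0, 13.0 and 4.86 in IWAT and 7.86, 0.991 and 3.37 in RWAT. It did not pass in BAT against white (2.43, edgeR adjusted p = 0.0920) and rose in BAT against EWAT (4.09, SE 0.76, edgeR adjusted p = 0.0473), where every BAT library was above every EWAT library. That call was lost when any of BAT replicates 1 and 2, EWAT replicates 2 and 3 and IWAT replicates 1 and 2 was left out, with an adjusted p of 0.0288 to 0.170. Pdk4, a kinase that shuts down pyruvate dehydrogenase when fatty acids are burned, was at 862, 137 and 313 CPM in BAT, 35.0, 21.9 and 25.9 in EWAT, 138, 218 and 36.3 in IWAT and 76.8, 23.7 and 107 in RWAT, with a log2 fold change of 2.80 (SE 0.56, edgeR adjusted p = 0.0920). Of 16 peroxisome assembly genes edgeR called 0, 9 had an unadjusted p under 0.05, all higher in BAT (12% of all genes tested), and the median was 0.80. The most abundant of them, Pex19, had a log2 fold change of 1.08 (SE 0.44, edgeR adjusted p = 0.247).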

How the data were processed

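RNA-seq of total RNA depleted of ribosomal RNA, read as single 75-base ends, was available for 12 libraries, 3 from each of 4 fat depots. The authors deposited RSEM tables per gene. Their expected counts are estimated counts that need not be whole, and their TPM and FPKM values are scaled for transcript length and depth by the authors. Also deposited, per the headers, were posterior means and standard deviations of each count, of which the SD was used to describe how uncertain a count was. The submitters' processing notes name Trimmomatic 0.36, RSEM 1.3.0, DESeq2 1.10.1 and build GRCm38.p4. No source used here gives the aligner, the gene annotation or the strand setting.

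For count models, the expected counts were rounded to integers. Genes with low counts were removed by edgeR's filterByExpr, which left 19154 of 47729, and the library sizes over these genes, 15675281 to 25617096 counts, were scaled by TMM. One quasi-likelihood model over all 4 depots (edgeR 4.0.16 in R 4.3.3) gave each contrast, with Benjamini-Hochberg adjustment over all genes tested and a threshold of 0.05. Log2 ratios of paired genes used TPM plus 0.1 and exact permutation tests. Alternatives were DESeq2 1.42.0, limma-voom (limma 3.58.1), other scalings and filters, FPKM in place of TPM, each library left out, and a replicate block. The fits with marker covariates, with counts of Cpt1b and Chkb summed and without BAT replicates 1 and 2 and RWAT replicate 3 are described in the closing section where they changed a value. Gene positions and overlaps come from the GENCODE annotation of GRCm38.p6. Scripts were tested on simulated data. Same-numbered libraries had correlations of -0.347 to 0.678 in their deviations from the depot means, and differently numbered ones of -0.653 to 0.601. These overlapping ranges do not settle whether the numbers pair samples. The labels do not pair them, so the main fit has no pairing and the replicate block is an alternative.

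The 39 members and all lists were chosen with earlier results of these data known. Any member may be named. Values per library are given for fixed core enzymes and the members with the largest fold changes in a comparison, and outside the module for genes called by the test, 5 fixed regulators or synthesis genes and the most abundant gene of a list with no call. Counting intervals cover counting error only.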

Additional observations from a re-analysis of the deposited data

How the results depend on the processing

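No member was called by edgeR in BAT against IWAT, BAT against RWAT or IWAT against EWAT and RWAT under any edgeR setting run. DESeq2 called 18 members in BAT against white, 29 against EWAT, 8 against RWAT, 1 in EWAT against RWAT and 27 for any difference. With the 2 groups of the comparison alone in the fit, 17 were called in BAT against EWAT (5.81% of all genes tested). With libraries left out in turn, 0 to 12 members were called in BAT against white (2 without BAT replicate 2 and 12 without RWAT replicate 1, where 0.145% and 1.27% of genes were called), 0 to 21 against EWAT (21 without BAT replicate 3 and 21 without RWAT replicate 1, where 9.7% and 6.86% were called) and 0 to 1 for any difference (1 without RWAT replicate 1). The members' median log2 fold change then ranged from 0.87 to 1.88 in BAT against white, from 1.57 to 2.58 against EWAT, from 0.00974 (without BAT replicate 1) to 1.05 against IWAT and from 1.07 (without BAT replicate 1) to 2.52 (without RWAT replicate 1) against RWAT. With the adipocyte covariate these medians were 0.65, 0.85 and 0.62 against white, EWAT and RWAT, and 0.15 in IWAT against EWAT and RWAT. 3 further settings were chosen after seeing the data. Without BAT replicates 1 and 2 and RWAT replicate 3, the libraries richest in muscle markers, the medians were 0.63, 1.34, -0.0737 and 0.60 against white, EWAT, IWAT and RWAT. With a muscle marker covariate the median against EWAT was 2.88. That fit called 0 members in BAT against white. There it left 752 genes at an unadjusted p under 0.05, beside 3476 in the main fit. Every BAT library but only RWAT replicate 3 of the white libraries was high in these markers, so the covariate separates depot from muscle poorly. The third setting summed Cpt1b and Chkb.

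With the replicate number as a block, 19 members were called in BAT against white (3.39% of all genes tested) and 31 against EWAT (18.5%), and 0 in the other comparisons. The labels do not pair the numbers, and not every library correlated best with its own number.

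Library sizes alone moved the median of all genes in BAT against white from -0.0662 to -0.46 and turned the fold changes of Crot (-0.15), Acad9 (-0.26), Acox3 (-0.33, and -0.0259 against RWAT) and Acot1 (-0.0822). The adipocyte covariate turned Crot (-0.0593), Acad9 (-0.15) and Abcd2 (-0.61), and the muscle covariate Acox3 (-0.0362) and Acot1 (-0.62). Without the 3 muscle-rich libraries Acad9 (-0.30), Abcd2 (-0.80) and the Acot1 to Acot2 ratio (0.31) turned. With libraries left out in turn, Acot1 ranged from -0.23 (without BAT replicate 1) to 0.96, Acad9 up to 0.40 and Abcd2 up to 1.21. The causes were not tested.

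The Cpt1b to Cpt1a difference ranged from 3.75 to 5.95 with libraries left out. Without the muscle-rich libraries the difference was 4.09, given without a p-value since 1 BAT library remained. That of Ehhadh to Hsd17b4 ranged from 0.80 (adjusted exact p = 0.0455, without RWAT replicate 2) to 1.03 (0.0152, without IWAT replicate 2) and was 0.74 without the muscle-rich libraries. That of Acot11 to Acot13 ranged from 0.00806 (without BAT replicate 1) to 2.08 (0.0455, without BAT replicate 2), and that of Acot1 to Acot2 from -1.04 to -0.0328. Leaving out every muscle-rich library could not be run for BAT, since all 3 BAT libraries exceeded that limit. Restricting the fit to the groups compared does not apply to BAT against white, which uses all 4. With 3 libraries a depot and 15699912 to 25633413 counts, the number of libraries limits these comparisons, and Acot1 and Slc27a2 also had few counts in some libraries.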
